A study of Mus musculus with 12 samples.

Results

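The genes described here are 10 effectors of the ATF4 and CHOP arm of the stress response, namely Atf4, Atf5, Atf3, Ddit3, Trib3, Chac1, Asns, Sesn2, Ppp1r15a and Ddit4. They were chosen by symbol, as the text before the Ensembl identifier in the name of each transcript, and all 10 were found in all 12 libraries among 15803 transcripts that had a read in any library. The data are ribosome profiling and RNA-seq of KPC cells, a line of pancreatic ductal adenocarcinoma (PDAC) from mice that carry Trp53 LSL-R172H and Pdx1-Cre, so that treated and control cells share these alleles. Cells were given 20 μM cisplatin (Cis), a platinum drug that cross-links DNA, for 6 or 21 h, or PBS, and were lysed with cycloheximide, which holds ribosomes on the mRNA. Each assay had 2 libraries per group, and the same PBS libraries were the control for both times. The labels call the controls untreated, the methods of the study name PBS for them, and neither tells how long the PBS cultures of these libraries were kept. All libraries come from a single line, and the labels do not say whether the libraries of a group came from separate cultures, so p-values measure only the spread between these libraries, which may be technical.

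The integrated stress response starts when kinases that sense stress phosphorylate the initiation factor eIF2α. Translation of most mRNAs then falls, while the mRNA of the transcription factor ATF4 is translated more, which depends on upstream open reading frames (uORFs) in its 5′ leader. ATF4 raises transcription of genes for amino acid supply and, with further stress, of Ddit3, which encodes the transcription factor CHOP. CHOP in turn raises Ppp1r15a, whose product GADD34 brings a phosphatase to eIF2α and restores translation. Phosphorylation of eIF2α was not measured in these libraries. The study describes it, and the protein level of the eIF2α kinase PERK, as largely intact after chemotherapy.

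Binding sites of this response were looked for in the promoters of the 10 genes, because ATF4 and CHOP act on their targets through short DNA elements. RefSeq promoter windows (build GRCm38.p6, 250 bases before and 50 after the start site) were found for all 10 genes, with 11 windows in all since Atf5 has a pair of them. The core of the C/EBP-ATF response element, TGATGNAA on either strand, occurred in 4 of the 10 genes, against 4.51% of 27025 genes with a window. The cAMP response element TGACGTCA, which overlaps no match of that core here, occurred in Ppp1r15a alone, against 2.03% of all genes. The ER stress element was searched as well and occurred in none of the 10 genes, against 0.137% of all genes. The 5 matching promoters are printed below on the strand of the gene, 5′ to 3′, with the matching bases in capitals, and positions are counted from the start site, where −1 is the last base before it. The coordinates are those of GRCm38.p6 in the order of the genes, chr1:191183334-191183583 (− strand), chr2:152344028-152344057 (− strand), chr2:119350992-119351241 (+ strand), chr6:7693210-7693459 (− strand) and chr7:45526269-45526518 (− strand). For Atf3, Chac1, Asns and Ppp1r15a these are the 250 bases before the start site, and for Trib3, whose match lies after it in the transcribed leader, 30 bases around the match.
Atf3 promoter, match on the opposite strand at −110: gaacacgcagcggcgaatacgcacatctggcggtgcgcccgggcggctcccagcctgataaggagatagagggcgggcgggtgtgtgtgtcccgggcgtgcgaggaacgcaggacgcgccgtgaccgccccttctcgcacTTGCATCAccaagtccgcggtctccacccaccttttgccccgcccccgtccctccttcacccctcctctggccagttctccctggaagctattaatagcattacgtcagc
Trib3 leader, match on the opposite strand at 15: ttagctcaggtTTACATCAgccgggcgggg
Chac1 promoter, match on the opposite strand at −193: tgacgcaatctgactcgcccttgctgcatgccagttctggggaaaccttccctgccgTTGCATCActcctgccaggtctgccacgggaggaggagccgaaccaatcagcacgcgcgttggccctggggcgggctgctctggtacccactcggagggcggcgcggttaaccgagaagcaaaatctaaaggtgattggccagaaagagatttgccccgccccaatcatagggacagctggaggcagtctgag
Asns promoter, match on the strand of the gene at −23: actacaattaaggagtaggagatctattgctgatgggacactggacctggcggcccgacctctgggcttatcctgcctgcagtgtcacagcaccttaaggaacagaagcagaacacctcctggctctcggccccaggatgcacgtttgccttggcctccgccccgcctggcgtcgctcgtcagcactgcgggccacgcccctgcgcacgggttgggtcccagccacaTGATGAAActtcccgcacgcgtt
Ppp1r15a promoter, match on both strands at −12: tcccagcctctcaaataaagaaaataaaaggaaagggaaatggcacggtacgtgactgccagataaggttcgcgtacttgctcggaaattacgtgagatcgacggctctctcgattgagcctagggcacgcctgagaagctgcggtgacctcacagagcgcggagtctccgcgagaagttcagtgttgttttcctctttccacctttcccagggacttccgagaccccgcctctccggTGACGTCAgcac

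A match is a description of the letters and not a site shown to be bound. The windows of Atf4, Atf5, Ddit3, Sesn2 and Ddit4 held none of these motifs within the letters searched.

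Values are RPKM, reads per kilobase scaled to the total of the library, per kilobase of coding sequence for footprints and of transcript for RNA, so levels of different genes are compared per length within an assay. Being relative to that total, they give no absolute rate of translation. Footprint libraries held 3375480 to 5204127 reads, and RNA-seq libraries 1985344 to 2901692, or 862476 to 1341584 without Lars2, Tmem38b and Mettl26, which took most of the RNA reads. Libraries of a group correlated at r = 0.988 to 0.991 for footprints and 0.968 to 0.976 for RNA. All 6 markers of ductal epithelium had reads in both assays, with Krt8, Krt18 and Krt19 far above Epcam, which was at or under 1.83 RPKM in every library. Their summed footprints were 9101 to 9781 RPKM with PBS, 9298 to 9356 at 6 h and 6697 to 6838 at 21 h, and their summed RNA 1468 to 1523, 1409 to 1469 and 1316 to 1362. The lower sum at 21 h came from Krt8 and Krt19, while Krt18 had footprints of 1720 and 1570 RPKM with PBS and 1668 and 1856 at 21 h, and RNA of 425.9 and 421.4 against 544.1 and 534.3. The fibroblast list was carried by Vim (2867 to 3862 footprint RPKM), with Acta2 at 5.32 to 15.45 and Col1a1, Col1a2 and Pdgfrb under 2 RPKM. The summed footprints of leukocyte, acinar and endothelial markers did not exceed 6.14 RPKM in any library. In such bulk libraries, fewer cells of a type and less RNA per cell cannot be told apart, and the part of these marker levels in the changes below was not tested.

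In footprints, 9 of the 10 genes were called higher at 21 h of Cis and 2 at 6 h, and none was called lower at either time. Changes were tested with limma on log2(scaled RPKM + 0.5) over all genes, with the Benjamini-Hochberg adjusted p under 0.05 as the threshold. Over all 10383 genes tested, 18.9% were called higher at 21 h and 1.05% at 6 h, and 20.2% were called lower at 21 h. The median change of the 10 genes was 1.39 on the log2 scale at 21 h and 0.39 at 6 h, and over all genes it was 0.0063 and −0.01. In RNA, 7 of the 10 were called higher at 21 h, against 11.6% of 9443 genes called higher and 12.2% called lower. At 6 h limma called 0 of the 10 in RNA, with 5 at an unadjusted p under 0.05 and 1 (Atf4) by voom on recovered reads, and 0% of all genes were called higher (0.604% by voom). The median RNA change of the 10 was 1.05 at 21 h and 0.32 at 6 h.

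Counted by library without any test, both footprint libraries at 21 h lay above both PBS libraries for all 10 genes, against 37.5% of all genes, and at 6 h for 7 of the 10, against 27.2%. In RNA the count was 9 of 10 at 21 h, against 38.3%, and 4 of 10 at 6 h, against 15.1%. The direct test of 21 h against 6 h called 8 of the 10 higher in footprints (15% of all genes) and 4 in RNA (7.53% of all genes). In RNA that test called 711 of all genes higher and 775 lower, and without scaling, which moved the median of all genes by 0.14, 1234 and 514.

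The shares of all genes also depended on single libraries. With any of the 6 footprint libraries left out, the share called higher in footprints at 6 h moved from 1.05% to between 0 and 1.9%, and it was 0 without 6 h replicate 2. The share in RNA at 21 h was 5.41% to 6.61% with any single one of the 4 PBS and 21 h libraries left out. Between 21 and 6 h, the footprint share was 8.11% without 6 h replicate 1 and 7.27% without 6 h replicate 2, and the RNA share was 2.76% to 4.52% with any single one of the 4 libraries compared left out.

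**Figure D1:**
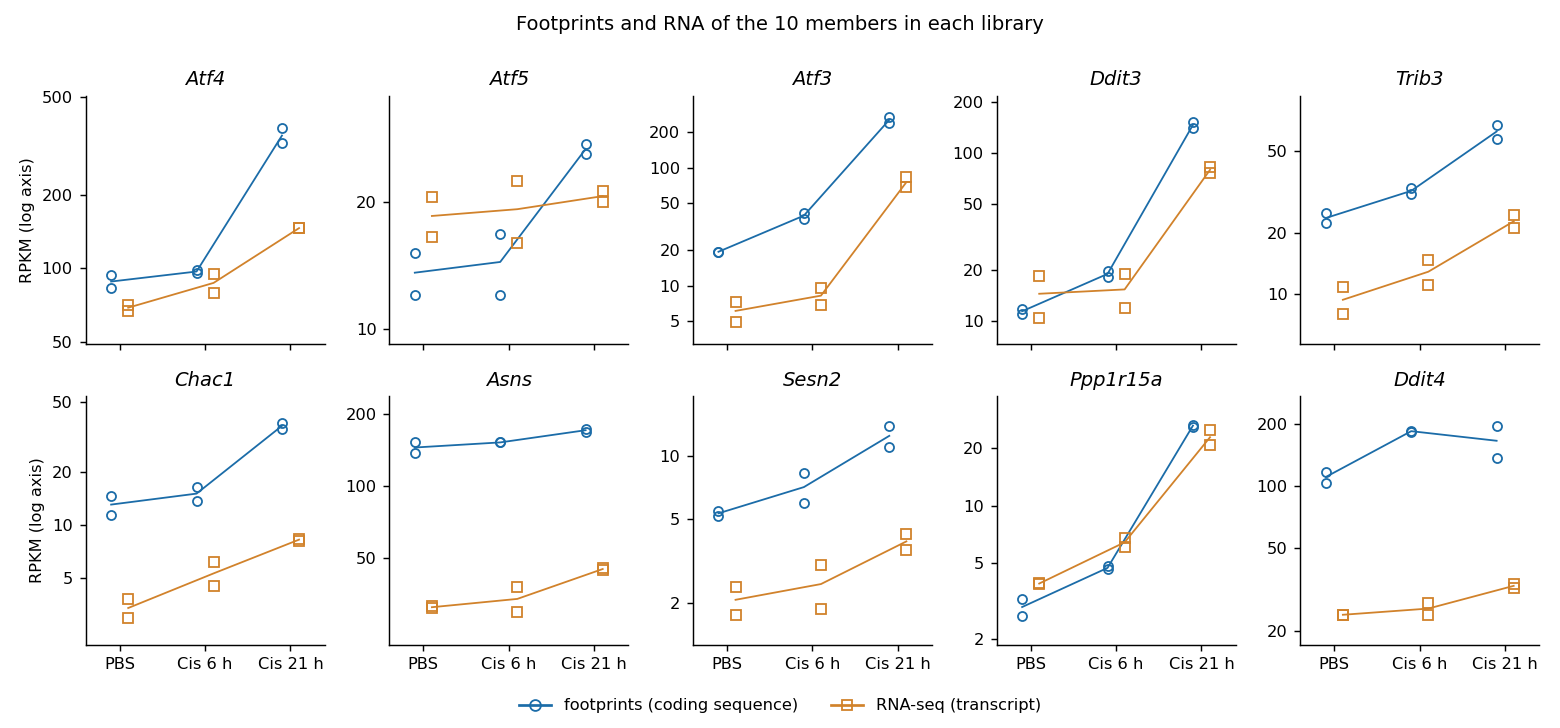
RPKM on a log axis of each gene with PBS and at 6 and 21 h of Cis, with blue circles for footprint libraries, orange squares for RNA-seq libraries and lines through the group means (n = 2). The footprints of Atf3, Ddit3 and Ppp1r15a rise most steeply between 6 and 21 h, and the RNA of Atf5 stays between 16.0 and 22.5 RPKM throughout.

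Atf4 encodes the central transcription factor of the response. Its footprints were 82.96 and 93.9 RPKM with PBS, 96.1 and 98.2 at 6 h, and 373 and 325 at 21 h. Its RNA was 67.1 and 71.1 RPKM with PBS, 79.4 and 95.2 at 6 h, and 146.1 and 146.2 at 21 h. The treated libraries lay above both PBS libraries in each assay at each time, but at 6 h by little and at 21 h by several times the spread. At 21 h footprints rose by 1.94 on the log2 scale (SE 0.11, limma adjusted p = 1.15e-05), or 3.83-fold, and RNA by 0.99 (SE 0.10, adjusted p = 0.000313), or 1.99-fold. At 6 h the changes were 0.12 in footprints (adjusted p = 0.545) and 0.40 in RNA (adjusted p = 0.264, and 0.0151 by voom).

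Atf5, the closest relative of Atf4 among the 10 and known for the mitochondrial stress response, was higher at 21 h in footprints only. Its footprints were 12.0 and 15.2 RPKM with PBS, 12.1 and 16.7 at 6 h, and 27.5 and 26.0 at 21 h. Its RNA was 16.6 and 20.5 RPKM with PBS, 22.5 and 16.0 at 6 h, and 21.3 and 20.0 at 21 h. The RNA libraries of the 3 groups overlapped, whereas the 21 h footprints lay above all others. Footprints rose by 0.92 at 21 h (SE 0.19, limma adjusted p = 0.00605), and the RNA change was 0.08 with a 95% interval of −0.33 to 0.49 (adjusted p = 0.795).

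Atf3, which encodes a transcription factor that many kinds of stress induce, had the largest fitted rise of the 10 at 21 h against PBS in both assays, although in footprints that of Ddit3 lay within the 95% interval. Its footprints were 19.5 and 19.4 RPKM with PBS, 41.6 and 37.1 at 6 h, and 243 and 269 at 21 h. Its RNA was 4.91 and 7.30 RPKM with PBS, 6.85 and 9.60 at 6 h, and 68.4 and 82.95 at 21 h. The footprints were thus already above PBS at 6 h in both libraries, while the RNA libraries of 6 h and PBS overlapped. The footprint rise was 0.98 at 6 h (SE 0.11, limma adjusted p = 0.00801) and 3.65 at 21 h (SE 0.11, adjusted p = 1.11e-06), or 12.5-fold, with a 95% interval of 3.40 to 3.90. The RNA rise was 3.46 at 21 h (SE 0.21, adjusted p = 2.95e-05), or 11.01-fold, and the change at 6 h was 0.47 (adjusted p = 0.434). The call in footprints at 6 h was lost without PBS replicate 1 (adjusted p = 0.0572), 6 h replicate 1 (0.0768) or 6 h replicate 2 (0.0680), and in a limma fit without a trend of variance with level (0.0701).

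Ddit3 (CHOP), which promotes cell death under lasting stress, followed the same order. Its footprints were 11.8 and 11.1 RPKM with PBS, 18.2 and 20.0 at 6 h, and 153 and 140 at 21 h. Its RNA was 10.496 and 18.6 RPKM with PBS, 11.9 and 19.0 at 6 h, and 82.97 and 75.8 at 21 h. RNA at 6 h spanned the same range as with PBS, and both assays were far above it at 21 h. Footprints rose by 3.59 at 21 h (SE 0.12, limma adjusted p = 1.11e-06), or 12.0-fold, and RNA by 2.38 (SE 0.26, adjusted p = 0.000388), or 5.197-fold. The rise of 0.70 in footprints at 6 h (SE 0.12, adjusted p = 0.0343) rests on 26 to 43 reads a library. That call was lost without any of the 4 libraries compared, with adjusted p of 0.111 without PBS replicate 1, 0.123 without PBS replicate 2, 0.145 without 6 h replicate 1 and 0.219 without 6 h replicate 2. It was also lost by voom (adjusted p = 0.118), without the filter on low values (0.0754), without the trend (0.0879) and with the replicate number as a block (0.0597).

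Trib3, a pseudokinase that binds ATF4 and restrains it, had footprints of 22.3 and 24.8 RPKM with PBS, 32.9 and 31.0 at 6 h, and 66.9 and 57.4 at 21 h. Its RNA was 10.8 and 7.99 RPKM with PBS, 14.7 and 11.1 at 6 h, and 24.4 and 21.0 at 21 h. In both assays the groups did not overlap and were ordered PBS, 6 h, 21 h. At 21 h footprints rose by 1.34 (SE 0.13, limma adjusted p = 0.000146) and RNA by 1.16 (SE 0.21, adjusted p = 0.00384). The 6 h changes of 0.42 and 0.50 did not pass (adjusted p = 0.117 and 0.403).

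Ppp1r15a (GADD34), the phosphatase subunit that reverses eIF2α phosphorylation, started from the lowest footprints of the 10. They were 2.63 and 3.27 RPKM with PBS, 4.65 and 4.81 at 6 h, and 26.7 and 26.0 at 21 h. Its RNA was 3.90 and 3.93 RPKM with PBS, 6.10 and 6.78 at 6 h, and 20.9 and 24.9 at 21 h. The groups were apart in both assays, with the larger step after 6 h. At 21 h footprints rose by 2.93 (SE 0.19, limma adjusted p = 2.28e-05), or 7.63-fold, and RNA by 2.32 (SE 0.18, adjusted p = 6.71e-05), or 4.98-fold. At 6 h the changes of 0.59 in footprints and 0.71 in RNA did not pass (adjusted p = 0.127 and 0.255).

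The 2 metabolic enzymes differed. Chac1, which breaks down glutathione, had footprints of 11.5 and 14.8 RPKM with PBS, 16.6 and 13.7 at 6 h, and 38.1 and 35.5 at 21 h. Its RNA was 2.98 and 3.79 RPKM with PBS, 6.15 and 4.50 at 6 h, and 8.39 and 8.18 at 21 h. At 21 h it rose by 1.43 in footprints (SE 0.17, limma adjusted p = 0.000415) and by 1.11 in RNA (SE 0.23, adjusted p = 0.00787). The RNA of Chac1 had only 12 to 32 reads a library, and its call was lost without PBS replicate 1 (adjusted p = 0.0610).

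Asns, which makes asparagine, had the highest footprints of the 10 with PBS. They were 153 and 137 RPKM with PBS, 152.2 and 152.1 at 6 h, and 169 and 174 at 21 h. Its RNA was 31.4 and 30.8 RPKM with PBS, 37.7 and 29.6 at 6 h, and 44.3 and 45.6 at 21 h. Asns was the only gene of the 10 whose footprints were not called at 21 h, with a change of 0.21 (95% interval 0.01 to 0.40, limma adjusted p = 0.0866). Its RNA was called higher at 21 h by 0.44 (SE 0.13, adjusted p = 0.0388). The RNA call was lost without PBS replicate 1 (adjusted p = 0.124), PBS replicate 2 (0.163), 21 h replicate 1 (0.124) or 21 h replicate 2 (0.108), without the filter (0.0688), with quantile normalization (0.107) and without the trend (0.128).

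Sesn2 and Ddit4 (REDD1) both encode inhibitors of mTORC1, the kinase complex that promotes translation and growth. The footprints of Sesn2 were 5.47 and 5.21 RPKM with PBS, 8.29 and 5.97 at 6 h, and 11.1 and 13.9 at 21 h. Its RNA was 1.75 and 2.38 RPKM with PBS, 3.04 and 1.87 at 6 h, and 3.58 and 4.27 at 21 h. Both assays were above PBS at 21 h, with a rise of 1.11 in footprints (SE 0.22, limma adjusted p = 0.00428) and an RNA change of 0.72 that did not pass (SE 0.29, adjusted p = 0.105). The RNA of Sesn2 had 15 to 31 reads a library.

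Ddit4 was the one gene whose mean footprints were lower at 21 h than at 6 h, by less than the spread of the 21 h libraries. They were 117 and 104 RPKM with PBS, 183 and 185 at 6 h, and 195 and 136 at 21 h. Its RNA was 23.8 and 24.0 RPKM with PBS, 27.3 and 23.9 at 6 h, and 33.8 and 32.2 at 21 h. The 6 h footprints lay between the 21 h libraries, which were far apart. The footprint change was 0.72 at 6 h (SE 0.15, limma adjusted p = 0.0518) and 0.52 at 21 h (SE 0.15, adjusted p = 0.0245), with −0.20 between the times (adjusted p = 0.354).

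The Ddit4 call at 6 h depended on the settings. It passed with a pseudocount of 1 (adjusted p = 0.0466), with a filter of at least 5 RPKM (0.0336), with only the compared groups in the model (0.0143), by voom (8.51e-05) and without 21 h replicate 1 (0.0168) or replicate 2 (0.0156). At 21 h the change was 0.27 without 21 h replicate 1 (adjusted p = 0.0863) and 0.79 without 21 h replicate 2. The 21 h call was also lost without PBS replicate 1 (0.0580) or PBS replicate 2 (0.124), without the filter (0.0558) and without the trend (0.0843). Between 21 and 6 h the change was −0.46 without 21 h replicate 1 (adjusted p = 0.0209) and 0.06 without 21 h replicate 2 (0.722).

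**Figure D2:**
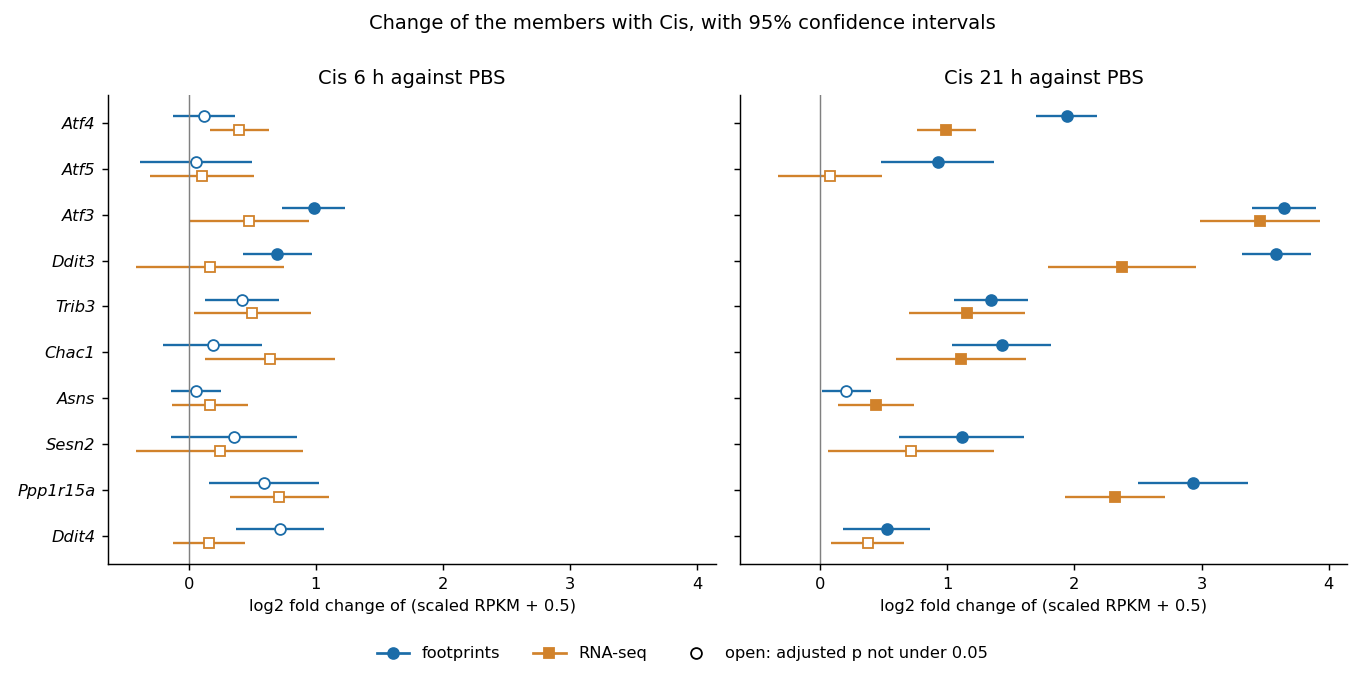
Log2 fold change of each gene against PBS at 6 h (left) and 21 h (right), with 95% confidence intervals from limma, blue circles for footprints and orange squares for RNA, filled where the adjusted p is under 0.05. At 6 h the footprints of Atf3 and Ddit3 alone are filled, and at 21 h all are filled but the footprints of Asns and the RNA of Atf5, Sesn2 and Ddit4.

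Set side by side at 21 h, 6 genes were called higher in both assays (Atf4, Atf3, Ddit3, Trib3, Chac1 and Ppp1r15a), 3 in footprints only (Atf5, Sesn2 and Ddit4) and 1 in RNA only (Asns). Of 9295 genes tested in both assays, 8.34% were called higher in both, 11.7% in footprints only and 3.35% in RNA only. A call in a single assay does not show that the assays differed, which is the question of the TE test below. Between 6 and 21 h, 4 genes were called higher in both assays (Atf4, Atf3, Ddit3 and Ppp1r15a) and 4 in footprints only (Atf5, Trib3, Chac1 and Sesn2), against 5.24% and 10.8% of all genes. In that comparison the RNA change of Trib3 was 0.65 (limma adjusted p = 0.0590). It passed with a filter of at least 5 RPKM (0.0453), without scaling (0.0215), with the replicate number as a block (0.0249) and by voom (0.00783). The RNA call of Atf4 was lost without the trend (0.0700). In footprints, the call of Atf5 was lost without 6 h replicate 1 (0.64). Sesn2 was lost without 6 h replicate 2 (0.54, adjusted p = 0.173) or 21 h replicate 2 (0.60, adjusted p = 0.133) and without the filter (adjusted p = 0.0613).

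The order of footprint levels, per length, shifted with treatment. With PBS it ran from Asns (144.9 ± 10.9 RPKM, SD, n = 2) through Ddit4 (110.6 ± 9.33), Atf4 (88.4 ± 7.70), Trib3 (23.6 ± 1.83), Atf3 (19.4 ± 0.0727), Atf5 (13.6 ± 2.24), Chac1 (13.1 ± 2.31), Ddit3 (11.4 ± 0.531) and Sesn2 (5.34 ± 0.181) to Ppp1r15a (2.95 ± 0.448). The libraries of Atf5 and Chac1 overlapped, as did those of Chac1 and Ddit3, and the other neighbours did not. At 21 h Atf4 was at the top (349.1 ± 34.3), followed by Atf3 (256.1 ± 18.8), Asns (171.1 ± 3.36), Ddit4 (165.5 ± 41.9) and Ddit3 (146.9 ± 9.25). Ddit4 overlapped both Asns and Ddit3 there. Trib3 (62.2 ± 6.72), Chac1 (36.8 ± 1.84), Atf5 (26.7 ± 1.07), Ppp1r15a (26.4 ± 0.494) and Sesn2 (12.5 ± 1.98) came after, and of these only Atf5 and Ppp1r15a overlapped.

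The ratio of footprints to RNA (translation efficiency, TE) placed 4 of the 10 genes well below the rest with PBS. The ratio of mean RPKM was 0.733 for Atf5, 0.753 for Ppp1r15a, 0.787 for Ddit3 and 1.28 for Atf4, against a median of 3.44 over 9292 genes (quartiles 2.08 and 5.48). The ratios of the other 6 were 2.50 for Trib3, 2.59 for Sesn2, 3.18 for Atf3, 3.88 for Chac1, 4.63 for Ddit4 and 4.66 for Asns. Atf4, Atf5, Ddit3 and Ppp1r15a are the members best known for uORFs that lower translation of the coding sequence in unstressed cells, and they were put together here after their values were seen, so no test was made of the group. The files give lengths of the 5′ leader of 594 bases for the Atf4 transcript counted, 373 for Atf5, 186 for Ddit3 and 764 for Ppp1r15a, and 174 to 348 for the other 6. They hold footprints on coding sequences only, so uORFs themselves were not measured here.

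By replicate number, the ratio of Atf4 was 1.24 and 1.32 with PBS, 1.21 and 1.03 at 6 h, and 2.56 and 2.22 at 21 h. That of Atf5 was 0.725 and 0.740 with PBS, 0.536 and 1.05 at 6 h, and 1.291 and 1.297 at 21 h. Both were higher in each 21 h pair than in every PBS or 6 h pair. The ratio of Ddit3 was 1.13 and 0.595 with PBS, 1.53 and 1.05 at 6 h, and 1.85 and 1.85 at 21 h. That of Ppp1r15a was 0.674 and 0.832 with PBS, 0.763 and 0.709 at 6 h, and 1.28 and 1.05 at 21 h. For all 4 the 21 h ratios lay above both earlier groups, yet still below the median of all genes at 21 h, 3.30. The same order was seen in Chac1, with 3.86 and 3.89 with PBS, 2.69 and 3.05 at 6 h, and 4.54 and 4.34 at 21 h. These 5 of the 10 genes stand beside 6.37% of 9220 genes whose 21 h ratios lay above all earlier ones. The numbers do not show that the footprint and RNA libraries of a pair came from the same dish.

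The difference between the footprint change and the RNA change was tested as an interaction over the 12 libraries. At 21 h only Atf4 of the 10 passed, with TE higher by 0.95 on the log2 scale (SE 0.16, limma adjusted p = 0.0360), or 1.93-fold, against 0.258% of 9295 genes called higher. Against 6 h, where the ratio was the lower of the early groups, Atf4 TE rose by 1.22 at 21 h (SE 0.16, adjusted p = 0.00529), and 0.592% of all genes were called higher. The other changes at 21 h did not pass, at 1.21 for Ddit3 (SE 0.33, adjusted p = 0.153), 0.85 for Atf5 (SE 0.29, adjusted p = 0.266), 0.61 for Ppp1r15a (SE 0.25, adjusted p = 0.331) and −0.24 to 0.40 for the remaining 6. The 95% intervals were 0.48 to 1.94 for Ddit3, 0.21 to 1.48 for Atf5 and 0.08 to 1.15 for Ppp1r15a, so these data do not show that their TE stayed the same. At 6 h limma called 0 of the 10 in TE, with 1 at an unadjusted p under 0.05 (Ddit4, 0.56, adjusted p = 0.538), 0 by voom and 0% of all genes (0.043% by voom).

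The size of the Atf4 TE change at 21 h held at 0.84 to 1.05 over all alternatives, but the call did not. It was lost without footprint PBS replicate 1 (adjusted p = 0.0892), footprint 6 h replicate 1 (0.0681) or 2 (0.0693), or footprint 21 h replicate 1 (0.0816) or 2 (0.0877). It was lost as well without RNA PBS replicate 1 (0.0904) or 2 (0.105), RNA 21 h replicate 2 (0.0954), the filter (0.0556), the trend (0.178) or the 6 h groups (0.0694), and by voom the adjusted p was 1.36e-05. The share of all genes called higher in TE at 21 h fell to between 0.0108% and 0.151% when a single library of footprint PBS, footprint 6 h or RNA PBS, or 21 h replicate 2 of either assay, was left out. The Ddit3 change passed by voom (1.251, adjusted p = 0.0422) and was 1.60 without RNA PBS replicate 1 and 0.83 without RNA PBS replicate 2. The rise of Atf4 TE between 6 and 21 h was lost without the trend alone (adjusted p = 0.0671), while the share of all genes called there was 0.14% to 0.343% with any single one of the 8 libraries of 6 or 21 h left out.

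**Figure D3:**
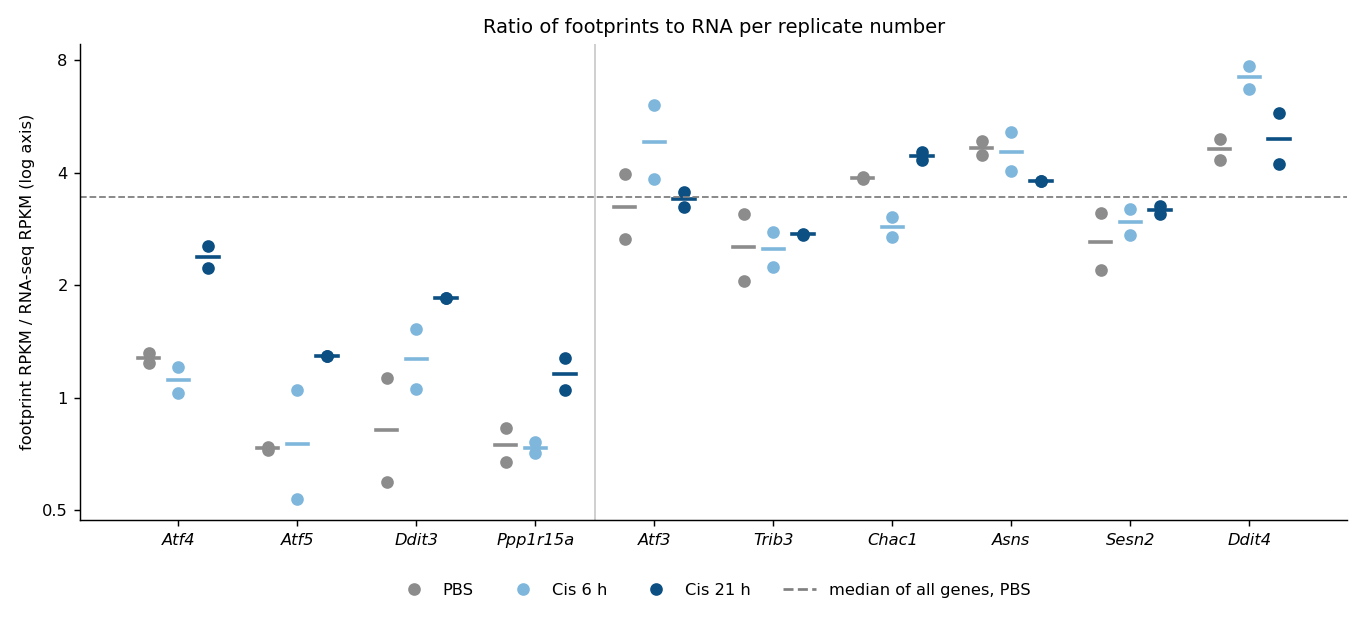
Ratio of footprint RPKM to RNA-seq RPKM on a log axis, with a point for each replicate number and bars for the geometric mean. PBS is grey, 6 h light blue and 21 h dark blue. Left of the vertical line are Atf4, Atf5, Ddit3 and Ppp1r15a, put together after their values were seen. A dashed line marks the median of all genes with PBS, 3.44. These 4 genes lie below the dashed line in every group. Their 21 h points, like those of Chac1, lie above their PBS and 6 h points.

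None of the other 6 genes passed in TE at 21 h. Their changes were 0.19 for Atf3, 0.19 for Trib3, 0.32 for Chac1, 0.40 for Sesn2, 0.15 for Ddit4 and −0.24 for Asns. For Atf3 the 95% interval was −0.37 to 0.75 beside rises of 3.65 in footprints and 3.46 in RNA. The median TE change of the 10 at 21 h was 0.36 and that of all genes −0.04.

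The rest of the pathway was described by 7 lists of 61 genes, of which 58 passed the filter on low values in each assay. At 21 h, 19 of the 58 were called higher and 8 lower in footprints, or 32.8% and 13.8%, beside the 18.9% and 20.2% of all genes. In RNA, 15 were called higher and 2 lower, or 25.9% and 3.45%, beside the 11.6% and 12.2% of all genes. The median footprint change of the 58 was 0.05, far from the 1.39 of the 10 effectors. At 6 h, 1 was called higher (Sqstm1) and 2 lower (Eif2s1 and Niban1) in footprints. They made up 1.72% and 3.45% of the 58, beside 1.05% and 0.992% of all genes. Each of these 3 calls was lost with any single PBS or 6 h library left out. The 61 genes, like the 10, were picked from what is known of the pathway with results of these data in view, so the counts are no independent evidence of direction.

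Of the 10 genes of the eIF2α kinases, phosphatase and regulators, 2 were higher and 3 lower in footprints at 21 h. These 20% and 30% stand beside 18.9% and 20.2% of all genes. Impact, an inhibitor of the kinase GCN2, rose by 0.95 (SE 0.14, limma adjusted p = 0.00105), while Gcn1, an activator of that kinase, fell by 0.62 (SE 0.17, adjusted p = 0.0187). The Gcn1 call was lost without PBS replicate 1 (0.0661) or 2 (0.101) or 21 h replicate 1 (0.0527) or 2 (0.0516). Oma1, the mitochondrial protease that signals to eIF2α kinases, changed by −0.87 (SE 0.24, adjusted p = 0.0221), and by −0.47 without 21 h replicate 2 (adjusted p = 0.0867), and its call was lost also without PBS replicate 1 (0.0855) or 2 (0.0974). Eif2s1, which encodes eIF2α itself, fell by 0.47 at 6 h (adjusted p = 0.0289) and rose by 0.31 at 21 h (adjusted p = 0.0114). The call of Eif2s1 at 21 h was lost without PBS replicate 1 (0.0504) and without the trend (0.0742).

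Among 5 partner transcription factors, Nupr1, a stress-induced cofactor, and Cebpb, a dimer partner of CHOP, rose in footprints at 21 h, by 1.12 (SE 0.11, limma adjusted p = 0.00014) and 0.66 (SE 0.13, adjusted p = 0.004). In RNA 3 of the 5 were called higher, beside 11.6% of all genes. Nupr1 and Cebpb rose in RNA by 1.01 and 0.56, and the RNA call of Cebpb was lost without PBS replicate 1 (0.54). Cebpa rose in RNA by 1.26 (SE 0.28, adjusted p = 0.0107), a call lost without PBS replicate 1 (0.98) or 21 h replicate 2 (1.05). Of the amino acid synthesis list, 5 of 10 genes were higher in footprints at 21 h and none lower, beside 18.9% and 20.2% of all genes. The largest of these rises were in Gpt2, an alanine aminotransferase (1.20, SE 0.16, adjusted p = 0.000626), and Mthfd2, a mitochondrial folate enzyme (0.71, SE 0.11, adjusted p = 0.00173). Mthfd2 rose in RNA by 1.01. Psph and Shmt2 of the serine and glycine route rose by 0.42 and 0.43 in footprints, and the Shmt2 call was lost without PBS replicate 1 (0.36). Phgdh and Psat1 of the same route were not called in footprints. Phgdh had 406.1 and 415.4 RPKM with PBS and 333 and 403.6 at 21 h. Psat1 had 396.1 and 424.8 with PBS and 409.1 and 478.2 at 21 h.

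Of 8 amino acid transporters tested, Slc3a2, the shared heavy chain, rose by 0.55 in footprints and 0.74 in RNA (limma adjusted p = 0.00146 and 0.0029). Slc7a11, the cystine transporter that pairs with it, changed by −0.43 in footprints (adjusted p = 0.0233), a call lost without PBS replicate 1 (−0.31, adjusted p = 0.133) or 21 h replicate 1 (−0.32, adjusted p = 0.115). Of 12 aminoacyl-tRNA synthetases, 4 were higher and 1 lower in footprints at 21 h, beside 18.9% and 20.2% of all genes. The median footprint change of the 12 was 0.06. Aars rose by 0.997 (SE 0.09, limma adjusted p = 0.000111) and Nars by 0.48 (SE 0.08, adjusted p = 0.00241), and Aars rose by 1.02 in RNA. Sars rose by 0.35 and Yars by 0.27 in footprints, and these calls were lost in 1 and 11 of 16 alternatives.

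Of 8 other ATF4 targets tested, 2 were higher and 2 lower in footprints at 21 h. Over all genes these shares were 18.9% and 20.2%. In RNA 1 of the 8 was higher and 1 lower, beside 11.6% and 12.2% of all genes. Sqstm1, an autophagy receptor, rose by 1.40 in footprints (SE 0.09, limma adjusted p = 1.82e-05) and 1.42 in RNA at 21 h. Niban1 fell by 0.68 in footprints (SE 0.11, adjusted p = 0.00144). Vldlr changed by −0.67 in footprints (SE 0.17, adjusted p = 0.0150) and by −1.01 in RNA (SE 0.25, adjusted p = 0.0173). Over the alternatives these changes ran from −0.78 to −0.54 and from −1.17 to −0.87, and some alternatives ended each call. Gdf15, a secreted stress hormone, had footprints of 0.634 and 0.472 RPKM with PBS, 1.64 and 2.93 at 6 h, and 10.2 and 8.19 at 21 h, all from at most 34 reads a library. Its groups did not overlap, and its fitted change at 21 h ranged from 2.68 to 3.80 with the alternatives.

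The 5 genes linked to CHOP in death and oxidation gave 3 calls higher and 1 lower in footprints at 21 h. Over all genes, 18.9% were called higher and 20.2% lower. Pmaip1 (NOXA) and Bcl2l11 (BIM), which promote apoptosis, rose by 1.57 (SE 0.15, limma adjusted p = 0.000142) and 1.15 (SE 0.13, adjusted p = 0.000353). Pmaip1 rose by 2.25 in RNA. The other higher call was Bbc3, at 1.09 in footprints (SE 0.29, limma adjusted p = 0.0179) from at most 19 reads a library. That call was lost by voom (adjusted p = 0.0583). Leaving out PBS replicate 2 (change 0.89) or 21 h replicate 2 (change 0.75) also ended it. Ero1a, the oxidase of the ER lumen, changed by −0.59 in footprints (adjusted p = 0.0214) and fell by 0.93 in RNA (adjusted p = 0.0024). The footprint value of Ero1a was −0.27 without 21 h replicate 2 (adjusted p = 0.0514), and the call was lost also without PBS replicate 1 (0.0893) or PBS replicate 2 (0.0732).

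**Figure D4:**
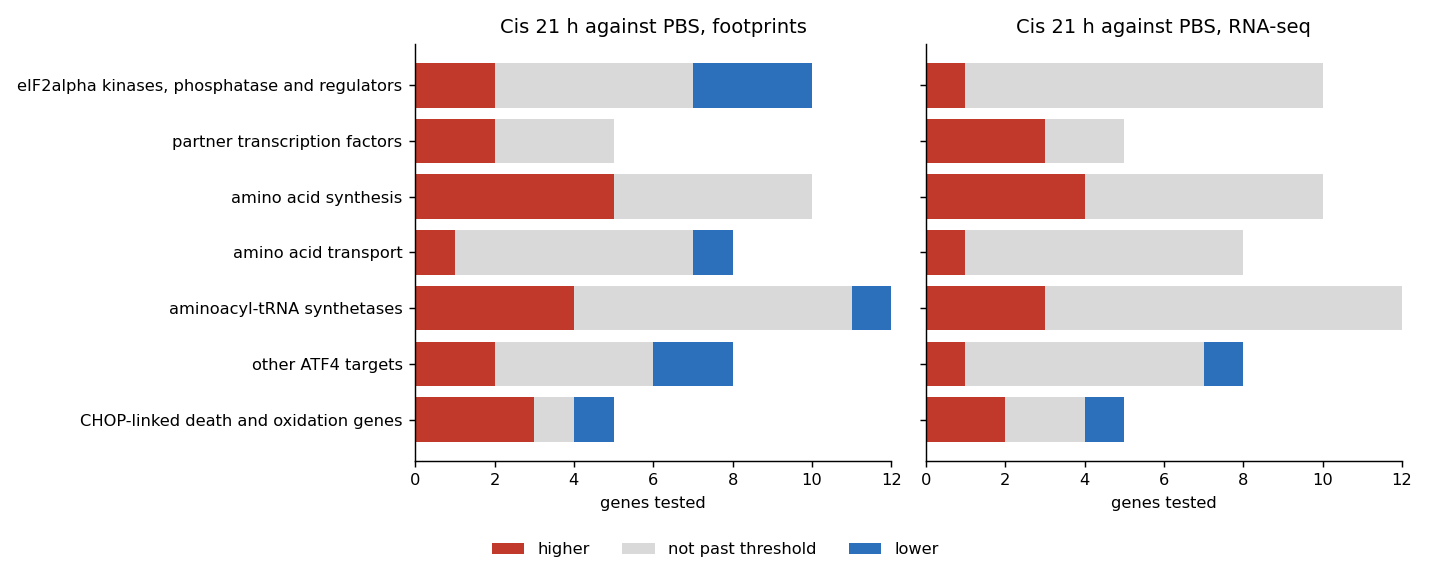
Number of genes tested in each of the 7 pathway lists, split into those called higher (red), not past the threshold (grey) and lower (blue) at 21 h of Cis against PBS, in footprints (left) and RNA-seq (right). The amino acid synthesis list has 5 of 10 genes higher in footprints, and the eIF2α list has 3 of 10 lower. Over all genes, 18.9% were called higher and 20.2% lower in footprints.

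The genes whose pattern over the 12 libraries was most like that of Atf4, by Euclidean distance of log2 values from the PBS mean of the assay, were Chaf1a (0.637), Iqgap3 (0.655) and Dusp6 (0.694). Those most like Ddit3 were Btg2 (1.31), Ptgs2 (1.55) and Jun (1.93). The distances are descriptions over 12 libraries that share depth and treatment, and the Ddit3 neighbours were farther from it than the Atf4 neighbours from Atf4.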

How the data were processed

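Footprint and RNA-seq libraries of KPC cells were grouped by the sample labels. The authors deposited 1 table of RPKM a library, with a representative transcript for each gene and replicates kept apart. The submitters' processing notes name cutadapt, STAR and GRCm39, with no versions. A transcript absent from a table was set to 0. RPKM times length gave whole multiples of what 1 read is worth (tolerance 0.01), which gave back the reads and the depth. Limits drawn from read numbers cover counting error alone.

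Within an assay, median-of-ratios factors brought the libraries to a common scale. Genes whose scaled RPKM averaged 1 or more (in both assays for TE) were fitted as log2(RPKM + 0.5) with limma 3.58.1 in R 4.3.3 (eBayes with a trend). A single model held all groups of the assay, or all 6 groups for TE. Fold changes on this scale understate those of low genes. Benjamini-Hochberg adjustment was made over all genes tested, two-sided, with a threshold of 0.05. For a single gene, permuting 2 libraries against 2 exactly cannot give a two-sided p below 0.333. Between libraries of a group, chi-square divided by its degrees of freedom was 1.45 to 4.33, above sampling noise.

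The 10 genes and the lists were chosen with earlier results of these data known. All 10 are named. Of each pathway list, genes past the threshold may be named, at most the 4 with the largest change, and for Atf4 and Ddit3 the 3 genes nearest in pattern. Alternatives tried were a pseudocount of 0.1 or 1, no filter on low values or a minimum of 5, unscaled values, quantile normalization, no trend, only the compared groups, the replicate number as a block, voom on recovered reads, and each library left out in turn. The fits were tested on simulated data first. Promoter windows are RefSeq's, on GRCm38.p6, and may not start at the transcripts counted. Files were read with Python 3.11.15. A further allele of the line is not reported here.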

Additional observations from a re-analysis of the deposited data

Results flagged for a closer look

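The change of Atf4 at 21 h against PBS differed between the assays, with footprints 0.95 above RNA on the log2 scale by limma's interaction test. That call was lost in 11 of 22 alternatives. The TE of Atf4 at 21 h was also 1.22 above that at 6 h.

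The changes at 21 h and at 6 h, which share the PBS libraries, differed by limma's direct test of the times. In footprints the difference was 2.89 for Ddit3, 2.66 for Atf3, 2.34 for Ppp1r15a, 1.81 for Atf4, 1.24 for Chac1, 0.93 for Trib3, 0.87 for Atf5 and 0.76 for Sesn2. In RNA it was 2.99 for Atf3, 2.21 for Ddit3, 1.60 for Ppp1r15a and 0.59 for Atf4. In each of these the 21 h value was the higher one. With 2 libraries a group, no library was tested for standing apart from its group.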

How the results depend on the processing

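Of 1614 values of the 10 genes under the alternatives, 1524 kept their direction and side of the threshold, 42 lost a call, 14 gained one and 34 changed sign. The cause of the changes was not tested. In footprints at 6 h the 2 genes called higher became 1 without the filter, 0 without the trend, 1 with the replicate block and 0 to 3 with a library left out. In RNA at 6 h voom called 1. In TE at 21 h the 1 called became 0 without the filter, without the trend or with only the compared groups, 2 by voom, and 0 to 1 with a library left out, and in TE at 21 against 6 h it became 0 without the trend. Between 21 and 6 h, 0 to 1 gene was lower in footprints with a library left out. Deviations of same-numbered libraries correlated at −0.04 to 0.04. These deviations also hold counting error, so low values do not show that same-numbered libraries are unrelated. The block changed no other count of the 10 genes by over 1.5 times. Over all genes it lowered those called in footprints at 6 h from 109 to 17 higher and from 103 to 20 lower, and those higher in TE at 21 h from 24 to 13. Signs turned only in values that were not called. Atf5 was −0.0305 in RNA at 21 h with quantile normalization, and without scaling 0.12 in RNA at 21 against 6 h and 0.0327 in TE at 6 h. With a library left out, footprint changes at 6 h ran from −0.17 to 0.29 for Atf5, −0.0089 to 0.38 for Chac1 and −0.0041 to 0.11 for Asns, and at 21 against 6 h from −0.46 to 0.0598 for Ddit4. RNA changes at 6 h ran from −0.14 to 0.35 for Atf5, −0.22 to 0.54 for Ddit3, −0.00403 to 0.34 for Asns and −0.0528 to 0.54 for Sesn2, and those of Atf5 from −0.0627 to 0.21 at 21 h and −0.27 to 0.21 at 21 against 6 h. TE changes at 6 h ran from −0.29 to 0.19 for Atf5, −0.30 to 0.14 for Trib3, −0.29 to 0.0621 for Asns, −0.18 to 0.41 for Sesn2 and −0.28 to 0.0249 for Ppp1r15a. At 21 h they ran from −0.0564 to 0.44 for Atf3, −0.0283 to 0.41 for Trib3 and −0.10 to 0.42 for Ddit4, and at 21 against 6 h from −0.29 to 0.0551 for Asns and −0.0098 to 0.58 for Sesn2. A lone library left in a group is assumed to vary like the others. Of the calls of pathway genes named by rule, 14 of 24 in footprints and 9 of 17 in RNA at 21 h held in all alternatives, and 0 of 3 in footprints at 6 h. Leaving out the scaling moved the median of all genes by up to 0.14 in RNA and −0.12 in TE (both 21 against 6 h). The RNA values of Chac1 and Sesn2 rested on the fewest reads.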
